A study of Drosophila melanogaster with 43 samples.

Results

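The libraries described here are 2 pellet and 2 supernatant RNA-seq libraries of fly head extract, numbered replicates 5 and 6, in which every row is an assembled locus without a gene name. A locus was given the gene whose FlyBase row, in the file of supernatant replicate 1, overlapped it by at least 50% in both directions, and a gene was kept when it was matched in all 4 files. This left 1789 of the 9611 FlyBase gene rows in that file, or 18.6%. The study asks which mRNAs the cytoplasmic polyadenylation element binding (CPEB) proteins Orb and Orb2 bind in Drosophila melanogaster S2 cells, and which head RNAs precipitate with biotinylated isoxazole (b-isox). It holds 43 samples, of which 12 are head fractions: the 4 described here and 8 of replicates 1 to 4. Every head library, pellet or supernatant, comes from heads of flies with the genotype Orb2 WT-GFP, kept on semi-defined medium at 25 °C, so no group here lacks that allele. The labels give no sex, age or number of flies, and they do not say that replicates are separate batches of flies. The p-values below therefore measure the spread between these libraries, which may be technical.

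B-isox is a small molecule that, when chilled in a cell extract, forms crystals to which proteins with low-complexity sequences bind. Many of these are RNA-binding proteins of RNA granules, and RNA bound to them comes down with the crystals. The pellet therefore holds RNA that precipitates with b-isox, and the supernatant holds what remains in solution. Orb2 is a CPEB protein needed for long-term memory in flies, and its prion-like domain forms assemblies in neurons.

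The deposited files listed 14906 loci for pellet 5 and 15370 for pellet 6, against 14815 for supernatant 5 and 14001 for supernatant 6. Pellet 6 stood apart in how finely it was assembled. Its loci had a median span of 706 bp, against 1297 bp in pellet 5, 1301 bp in supernatant 5 and 885 bp in supernatant 6. Genes matched numbered 4191 in pellet 5 and 2091 in pellet 6, against 4379 in supernatant 5 and 2993 in supernatant 6, so pellet 6 set the limit on which genes could be followed. The files give FPKM (fragments per kilobase of transcript, relative to all mapped fragments of a library) without read counts, so the depth of the libraries is unknown. The 1789 genes held 31.1% of the summed FPKM of pellet 5 and 22.8% of that of pellet 6, against 39.9% for supernatant 5 and 38.0% for supernatant 6.

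The genes that could be followed are mostly short. Their median locus span was 1065 bp, against 1407 bp for all FlyBase gene rows and 1904 bp for all named rows of the naming file. Of the 1789 genes, 1732 are annotated as protein coding, 15 as long noncoding, 2 as antisense and 1 as small nuclear RNA. The other 39 were not found by their FlyBase ID in the name table. The CPEB genes orb2 and orb were not matched in all 4 files and have no value here. Of 32 gene lists considered, 8 had no matched gene: potassium channels, sodium and calcium channels, neurotransmitter receptors, synaptic vesicle release, cAMP and Ras signalling, motors, adhesion and axon guidance, and chemoreceptors. The RNA granule list kept only AGO2, the Argonaute of the siRNA pathway. What follows is thus a description of short, well-expressed transcripts, in which ribosomal, mitochondrial, proteasomal and secreted-peptide genes are common.

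Of the markers of head tissues, 4 could be read, and all 4 were detected in both fractions. Arr1, a photoreceptor arrestin that ends rhodopsin signalling, had 2316 and 1507 scaled FPKM in pellets 5 and 6, against 2169 and 1471 in supernatants 5 and 6; scaled FPKM is FPKM divided by a scaling factor of each library. The muscle light chain Mlc2 had 1936 and 1599 in the pellets against 2208 and 1547 in the supernatants. The yolk protein gene Yp2, made by female fat body, had 4878 and 3617 in the pellets against 7506 and 5099 in the supernatants. Lsp2, a fat body storage protein gene, had 95.8 and 66.6 in the pellets against 151 and 62.7 in the supernatants. The fractions overlapped for Arr1, Mlc2 and Lsp2, whereas both pellets lay below both supernatants for Yp2. No marker of the neuron list (0 of 6) and none of the glia list (0 of 5) was among the 1789 genes. With names taken from all named rows, a setting chosen after seeing the data, the glial glutamine synthetase gene Gs2 was matched, at 1218 and 548 FPKM as deposited in pellets 5 and 6, against 1021 and 296 in supernatants 5 and 6. Under that setting 7 of 9 photoreceptor, 4 of 5 fat body and 2 of 5 muscle markers were matched, without a common side. As deposited, Rh3 had 493 and 135 in pellets 5 and 6, against 661 and 288 in supernatants 5 and 6. ninaC had 622 and 765 in the pellets against 137 and 396 in the supernatants. Yp1 had 10969 and 2942 in the pellets against 8552 and 5386 in the supernatants. No neuron marker was matched in that way either.

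Markers of tissues that heads should lack were present as well. Acp70A, the sex peptide of the male accessory gland, had 506 and 885 scaled FPKM in the pellets against 515 and 760 in the supernatants. The midgut trypsin gene betaTry had 218 and 270 in the pellets against 223 and 480 in the supernatants. Of the digestive markers, 3 of 5 were matched, and the other pair, Jon99Ci and LysX, lay between 6.31 and 18.3 scaled FPKM in all 4 libraries. Of the accessory gland markers 1 of 4 was matched and of the germline markers 0 of 6. With all named rows, the germline marker vas was matched, at 6.07 and 98.6 FPKM as deposited in pellets 5 and 6. It had 2.28 and 12.1 in supernatants 5 and 6. The midgut marker Jon65Aiii, matched in the same way, had 115 and 191 in the pellets against 117 and 251 in the supernatants. These transcripts were in both fractions, and their part in the differences below was not tested. In bulk extract, fewer cells of a type and less RNA per cell cannot be told apart.

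The pair of libraries with the same number resembled each other more than the libraries of the same fraction. Across the 1789 genes, log2 levels correlated with Pearson's r of 0.96 between pellet 5 and supernatant 5 and 0.93 between pellet 6 and supernatant 6. The correlation was 0.89 between the pellets and 0.92 between the supernatants. These are correlations across genes, which share their library and are not independent replicates. Scaling factors were 0.929 and 1.05 for pellets 5 and 6 and 0.998 and 1.03 for supernatants 5 and 6, so scaling moved the values little.

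No gene passed the test between the fractions with these 4 libraries. With limma on log2(scaled FPKM + 0.5), 0 of 1789 genes passed an adjusted p of 0.05 (0%), and the smallest adjusted p was 0.975. At an unadjusted p under 0.05 there were 67 genes, or 3.75%, of which 39 (2.18%) were higher and 28 (1.57%) lower in the pellet. That is a smaller share than the 0.05 threshold gives when no gene differs. This fit did not pair the libraries by number. With the number as a block, 337 of the 1789 genes had an unadjusted p under 0.05 by limma. Again 0 passed, and the smallest adjusted p was 0.0716. With 4 libraries, the blocked fit has little left from which to estimate the spread. The values nevertheless leaned the same way in both replicates more often than not: 1218 genes (68.1%) had the same sign of the pellet difference in replicates 5 and 6. Across genes the log2 differences of the replicates had a Pearson's r of 0.43 and a Spearman's rho of 0.47. In 588 genes (32.9%) the pellet was higher in both replicates, and in 630 (35.2%) it was lower in both. Both pellets lay above both supernatants in 288 genes (16.1%) and below both in 290 (16.2%). Shares near these arise when 2 and 2 libraries fall in random order, so these counts alone show no difference between the fractions. The differences were wider in replicate 6, where their SD across genes was 0.83 on the log2 scale, than in replicate 5, where it was 0.61.

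**Figure D1:**
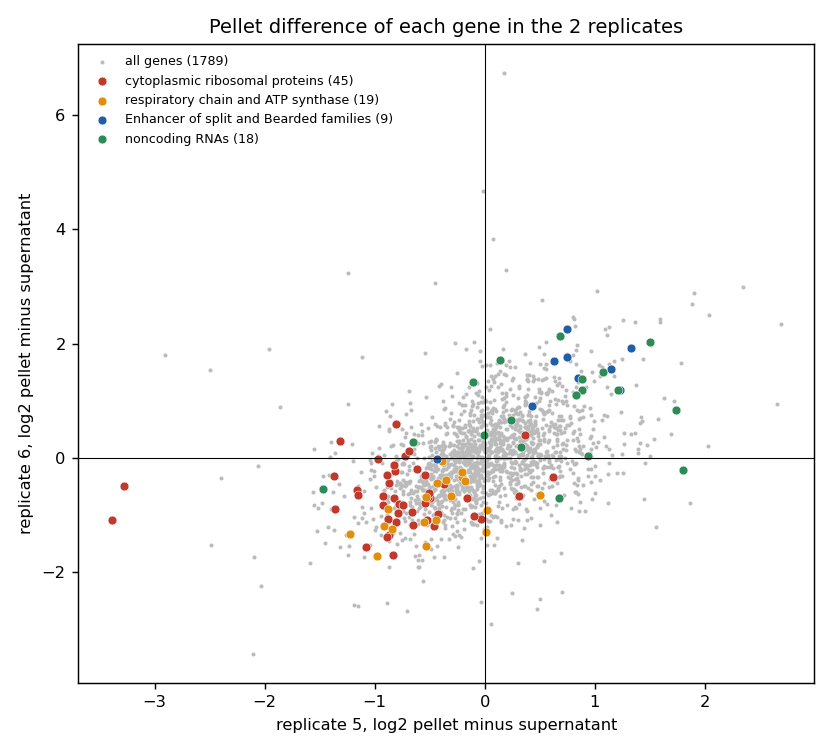
Log2 difference of pellet minus supernatant of each of the 1789 genes in replicate 5 (horizontal) and replicate 6 (vertical), with 4 groups of genes coloured and all genes in grey. Ribosomal protein and respiratory genes sit mostly in the lower left, where both pellets are lower, and Enhancer of split and Bearded genes mostly in the upper right.

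The 9 genes named as higher in both pellets had log2 differences between 1.72 and 2.51. disco encodes a zinc-finger transcription factor needed for the wiring of the optic lobe; it lies on chromosome X at 16104631 to 16110779 (build dm3, as are all positions here). It had 18.0 and 25.6 scaled FPKM in pellets 5 and 6, against 2.36 and 4.68 in supernatants 5 and 6, a log2 difference of 2.51 (SE 0.51, adjusted p = 0.975 by limma). emc, on 3L at 749400 to 753492, encodes a helix-loop-helix protein without a DNA-binding region that holds other such factors inactive. It had 58.5 and 72.1 in the pellets against 19.0 and 12.9 in the supernatants. The groups of both genes are separate by a wide margin, though separation was part of the choice. The adjusted p is the same 0.975 for all of the genes named in this and the next paragraph.

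CrebA, on 3L at 15528514 to 15546314, encodes a bZIP factor that raises the transcription of secretory pathway genes. Its levels were 16.8 and 40.0 scaled FPKM in pellets 5 and 6, against 4.19 and 5.74 in supernatants 5 and 6. The long noncoding RNA noe, on 3L at 17393447 to 17394448, was among the most abundant RNAs. It had 25531 and 25485 in the pellets against 9027 and 6229 in the supernatants, a log2 difference of 1.77 (SE 0.49). CG34461 had 44.8 and 48.5 in the pellets against 10.5 and 8.14 in the supernatants, the smallest unadjusted p on this side (0.00222 by limma). The remaining 4 of the 9 given here, CG13337, CG31788, CG42367 and CG13465, had differences between 1.72 and 2.39. All 8 of the 9 that could be tested in replicates 1 to 4 had a positive difference there too, and 5 of them passed the test in those replicates, against 2.72% of all genes.

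**Figure D2:**
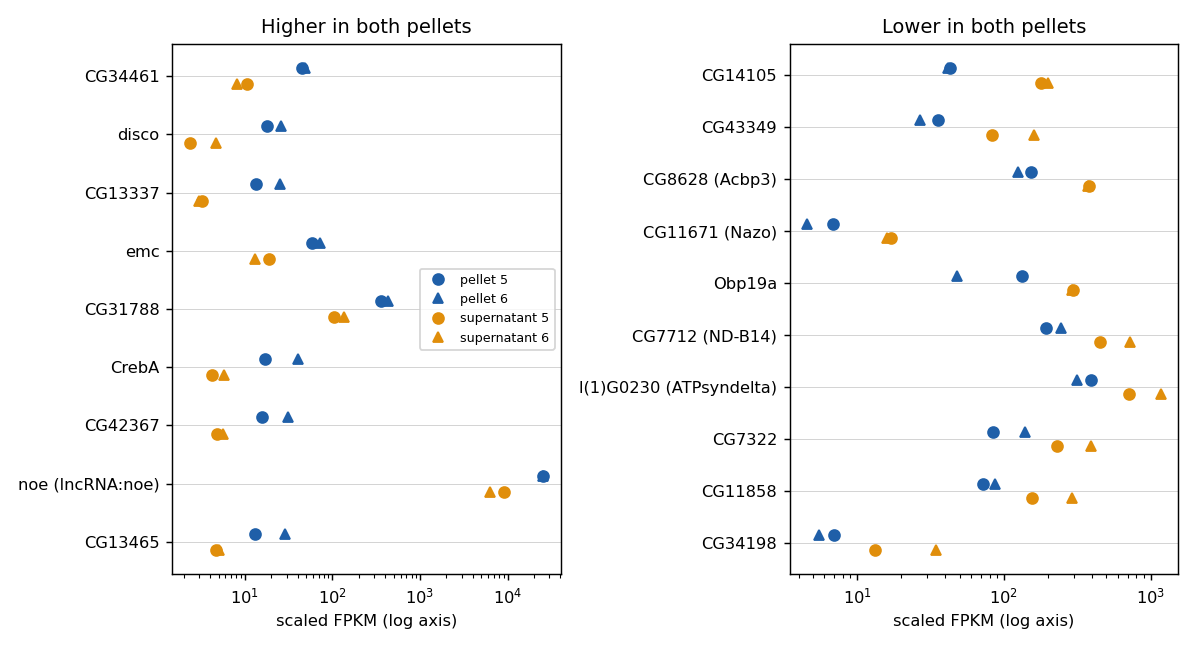
Scaled FPKM on a log axis of the 9 genes named as higher and the 10 named as lower in the pellets, with pellets 5 and 6 drawn in blue above supernatants 5 and 6 in orange in each row. In the left panel both pellets lie to the right of both supernatants for every gene, and in the right panel to the left of them, since non-overlap was part of the choice.

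The genes of the Notch-responsive Enhancer of split complex and of the related Bearded family lay mostly on the pellet side. They encode basic helix-loop-helix repressors and small Bearded-type proteins that act in the choice of neural precursors. The group was put together after its values were seen and so gets no test. Of its 9 matched genes, 8 lay higher in both pellets than in both supernatants, against 16.1% of all genes, and the median log2 difference was 0.75 in replicate 5 and 1.55 in replicate 6. The same 8 are higher in replicate 5 alone by that definition, so this is no separate check on the finely assembled pellet 6. Brd, the founding Bearded gene, had 195 and 130 scaled FPKM in pellets 5 and 6, against 82.7 and 56.6 in supernatants 5 and 6. HLHm5, a repressor of the complex, had 14.3 and 14.1 in the pellets against 6.2 and 4.48 in the supernatants. Its neighbour in the complex malpha, a Bearded-type gene, had 20.4 and 27.5 in the pellets against 11.1 and 10.2 in the supernatants. The exception was HLHmbeta, with 23.6 and 31.5 in the pellets against 32.1 and 31.9 in the supernatants. BobA, at 9.16 and 17.8 in the pellets against 3.34 and 4.31 in the supernatants, has near-identical copies with which it can share reads, so its level is uncertain. The median difference of the 9 genes in replicates 1 to 4 was 0.84, and 1 of them, BobA, passed the test as higher, against 2.72% of all genes.

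Noncoding RNAs had a positive median difference as well. Of 18 matched noncoding genes, a group also put together after values were seen, 9 were higher in both pellets than in both supernatants, against 16.1% of all genes, and 1 was lower, against 16.2%. The median log2 difference was 0.75 in replicate 5 and 0.97 in replicate 6. Over both replicates it was 0.86, and without supernatant 6 it was 0.42. Beside noe, snRNA:7SK, the small nuclear RNA that holds the elongation factor P-TEFb inactive, had 43.8 and 54.1 scaled FPKM in pellets 5 and 6, against 20.6 and 18.8 in supernatants 5 and 6. The long noncoding RNA CR43432 (current symbol lncRNA:marge) had 45.4 and 36.6 in the pellets against 13.3 and 20.2 in the supernatants. The gene that went the other way was CG32368, now lncRNA:CR32368, with 26 and 49.6 in the pellets against 72.8 and 72.4 in the supernatants. Of the 12 noncoding genes that could be tested in replicates 1 to 4, 0 passed (limma), and snRNA:7SK had a difference of -0.74 there, opposite in sign to replicates 5 and 6.

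Among further genes with higher pellet values, msl-3, a subunit of the dosage compensation complex of the male X chromosome, had 24.2 and 59.5 scaled FPKM in pellets 5 and 6, against 13.5 and 11.7 in supernatants 5 and 6. It was the only matched gene of the chromatin list, and it rose in the pellet of replicates 1 to 4, where its log2 difference was 1.75 (adjusted p = 0.00269, limma). The splicing factor gene Rsf1 had 83.9 and 102 in the pellets against 48.1 and 45.9 in the supernatants, and it too rose in replicates 1 to 4, by 0.95 (adjusted p = 0.0114, limma). The other of the 2 matched genes of its RNA-binding protein list, snf, went the other way. It had 70.3 and 86.2 in the pellets against 108 and 137 in the supernatants, and a difference of -0.47 in replicates 1 to 4 (adjusted p = 0.252, limma). AGO2 had 21.2 and 57.5 in the pellets against 13.9 and 28.8 in the supernatants. Its fractions overlapped.

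The vacuolar proton pump, which acidifies lysosomes and synaptic vesicles, had a median log2 difference of 0.53 over 9 matched genes. The pellet was higher in both replicates for 5 of them, against 32.9% of all genes, and lower in both for 1, against 35.2%. VhaM9.7-d, a membrane subunit, had 26.7 and 33.3 scaled FPKM in pellets 5 and 6, against 18.0 and 10.3 in supernatants 5 and 6. Vha13, the most abundant member, had 986 and 409 in the pellets against 975 and 947 in the supernatants. The direction of this list rested on which libraries were compared: without pellet 5 its median was -0.32, without supernatant 6 it was -0.22, without pellet 6 it was 0.95 and without supernatant 5 it was 1.19.

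The 10 genes named as lower in both pellets had log2 differences between -2.14 and -1.39. CG14105, on 3L at 13418991 to 13419773, had the smallest unadjusted p of all (0.00176 by limma). It had 43.2 and 41.7 scaled FPKM in pellets 5 and 6, against 179 and 200 in supernatants 5 and 6, a log2 difference of -2.14 (SE 0.40, adjusted p = 0.975 by limma). CG8628 (current symbol Acbp3), an acyl-CoA binding protein, had 154 and 126 in the pellets against 383 and 374 in the supernatants. Both replicates of each fraction lay close together for these genes, which the choice by smallest p favours.

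Obp19a, an odorant-binding protein secreted into the fluid around olfactory neurons, had 132 and 47.8 scaled FPKM in pellets 5 and 6, against 295 and 292 in supernatants 5 and 6. CG7712 (ND-B14), a subunit of respiratory complex I, had 194 and 245 in the pellets against 456 and 720 in the supernatants. l(1)G0230 (ATPsyndelta), a subunit of the catalytic part of ATP synthase, had 390 and 313 in the pellets against 712 and 1174 in the supernatants. The other 5 of the 10, CG43349, CG11671 (Nazo), CG7322, CG11858 and CG34198, had differences between -1.88 and -1.42. Of these 10 genes 8 could be tested in replicates 1 to 4, where 6 had a negative difference and 0 passed the test (limma).

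Cytoplasmic ribosomal protein genes had the lowest median difference of the groups with 5 or more matched genes. Of 45 matched genes, 28 lay lower in both pellets than in both supernatants, against 16.2% of all genes, and 1 lay higher. The median log2 difference was -0.79 in replicate 5 and -0.70 in replicate 6, against -0.02 and -0.01 for all genes. In replicate 5 alone 42 of the 45 were lower in the pellet, and in replicate 6 alone 40. RpS23 had 2835 and 2573 scaled FPKM in pellets 5 and 6, against 5235 and 6728 in supernatants 5 and 6, a difference of -1.14 (SE 0.44, unadjusted p = 0.0417 by limma). RpL29, the most abundant of them, had 6877 and 10378 in the pellets against 10033 and 17858 in the supernatants, so its groups overlapped. The supernatants of RpL34a were far apart: it had 505 and 785 in the pellets, against 4914 in supernatant 5 and 1100 in supernatant 6. Of the 39 that could be tested in replicates 1 to 4, 33 fell in the pellet, against 3.69% of all genes tested there, and 0 rose (limma), with a median of -0.90. Under quantile normalization of replicates 5 and 6 the median of the list was -0.12, in place of -0.70. These genes are also abundant, with a median supernatant level of 2682 scaled FPKM, against 39.9 for all genes. The shares of all genes given beside this and the other lists are not matched for level. The part of level in these differences was not tested.

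Respiratory chain and ATP synthase genes were mostly lower in the pellet too. Of 19 matched genes of the list, the pellet was lower in both replicates for 16, against 35.2% of all genes. It was higher in both for 0, against 32.9%. Both pellets lay below both supernatants in 9 of the 19, against 16.2% of all genes. The median log2 difference was -0.43 in replicate 5 and -0.89 in replicate 6. ATPsyn-Cf6, coupling factor 6 of ATP synthase, had 1057 and 581 scaled FPKM in pellets 5 and 6, against 2080 and 1903 in supernatants 5 and 6. CG3321 (ATPsynE) had 647 and 403 in the pellets against 1518 and 1012 in the supernatants. sun, the epsilon subunit and the most abundant of the list, had 1565 and 2724 in the pellets against 2269 and 7978 in the supernatants. Its fractions overlapped, and the spread between the replicates of a fraction was wide. The median in replicates 1 to 4 was -0.20, with 3 of 18 genes fallen, against 3.69% of all genes, and 0 risen, against 2.72% (limma). With quantile normalization the median in replicates 5 and 6 was -0.31.

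Mitochondrial ribosomal protein genes were lower in the pellet in both replicates for 31 of 47 genes, against 35.2% of all genes. They were higher in both for 3, against 32.9%, and the median log2 difference was -0.36. mRpS33 had 115 and 185 scaled FPKM in pellets 5 and 6, against 244 and 401 in supernatants 5 and 6. mRpL42 was mixed, with 234 in pellet 5 against 254 in supernatant 5, and 539 in pellet 6 against 286 in supernatant 6. The size of this median depended on the libraries: without supernatant 6 it was -0.010, without pellet 5 -0.13, without pellet 6 -0.54 and without supernatant 5 -0.60. In replicates 1 to 4, 1 of 46 genes fell, near the 3.69% of all genes, and 0 rose (limma).

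Proteasome genes, which encode the cell's main protease complex, were lower in the pellet in both replicates for 13 of 18, against 35.2% of all genes. They were higher in both for 1, against 32.9%, with a median of -0.40. Pros29 (Prosalpha3) had 171 and 174 scaled FPKM in pellets 5 and 6, against 271 and 406 in supernatants 5 and 6. Prosalpha7 had 260 and 244 in the pellets against 330 and 501 in the supernatants, and it fell in replicates 1 to 4 (log2 difference -0.60, adjusted p = 0.0288, limma). Of the 16 proteasome genes tested in replicates 1 to 4, 1 fell, against 3.69% of all genes, and 1 rose, against 2.72% (limma). Under quantile normalization the median of the list was -0.18. Of 10 translation factor genes, the pellet was lower in both replicates for 6, against 35.2% of all genes, and higher in both for 2, against 32.9%. The sign of the translation factor median depended on the libraries. Without pellet 5 it was -0.48 and without supernatant 6 -0.33, but without pellet 6 it was 0.21 and without supernatant 5 0.16. Int6 (eIF3e), a subunit of initiation factor 3, had 147 and 124 in the pellets against 200 and 207 in the supernatants.

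**Figure D3:**
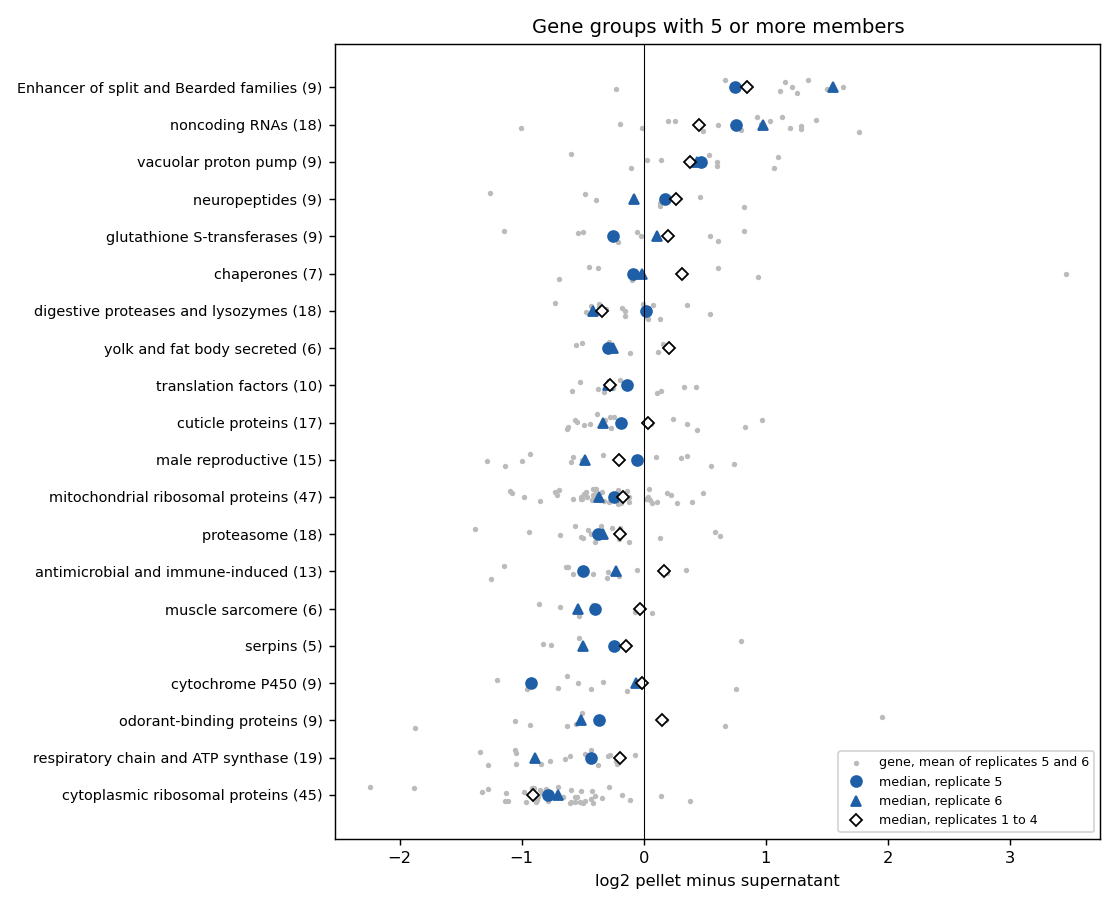
Log2 difference of pellet minus supernatant for the gene groups with 5 or more matched genes. Grey points are genes (mean of replicates 5 and 6), filled symbols the group medians of replicate 5 (circle) and replicate 6 (triangle), and open diamonds the medians in replicates 1 to 4. Cytoplasmic ribosomal proteins have the lowest median, -0.70, and Enhancer of split and Bearded genes the highest, 1.21.

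The neuropeptide, odorant-binding protein and glutathione S-transferase groups had no common side or rested on few genes. Counts here and in the next paragraph are of genes whose pellet was higher (32.9% of all genes) or lower (35.2%) in both replicates. Of 9 neuropeptide genes, 3 were higher and 2 lower in both. Nplp4 had 38.5 and 13.8 scaled FPKM in pellets 5 and 6, against 59.1 and 53.5 in supernatants 5 and 6, while the adipokinetic hormone gene Akh had 11.1 and 11.0 in the pellets against 9.79 and 3.65 in the supernatants. Of 9 odorant-binding protein genes 6 were lower in both pellets and 2 higher in both. Their median log2 difference was -0.56, against 0.15 in replicates 1 to 4. Obp44a, with 1104 and 599 in the pellets, had 1768 and 1357 in the supernatants. Of 9 glutathione S-transferase genes, which detoxify electrophiles, 4 were lower and 2 higher in both. Neighbours of that cluster went apart: GstE9 had 96.7 and 111 in the pellets against 215 and 245 in the supernatants, whereas GstE3 had 254 and 318 in the pellets against 164 and 213 in the supernatants.

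Of 13 antimicrobial and immune-induced genes, the pellet was lower in both replicates for 8, against 35.2% of all genes, and higher in both for 1, against 32.9%. Their median log2 difference was -0.41, against 0.16 in replicates 1 to 4. PGRP-SC2, an amidase that degrades bacterial peptidoglycan, had 79.9 and 91.5 scaled FPKM in pellets 5 and 6, against 154 and 235 in supernatants 5 and 6. Of 17 cuticle protein genes 11 were lower in both and 2 higher in both. The median of this list was -0.28, against 0.04 in replicates 1 to 4. The 2 cuticle genes with the smallest p, Cpr66D and Cpr49Ae, had differences of 0.83 and 0.97. Cpr49Ae had 152 in pellet 5 against 163 in supernatant 5, and 182 in pellet 6 against 44.3 in supernatant 6. Cpr66D was low, at 3.96 in pellet 5 against 3.55 in supernatant 5, and 10.1 in pellet 6 against 3.20 in supernatant 6. Of 9 cytochrome P450 genes 5 were lower in both, and Cyp9b2 had 57.3 and 37.6 in the pellets against 165 and 69.6 in the supernatants. Of 5 serpins 4 were lower in both, of 6 muscle sarcomere genes 4, and of 6 yolk and fat body genes 2, the last near the 35.2% of all genes. Spn27A, a serpin and an inhibitor in the Toll and melanization cascades, had 51.1 and 38.9 in the pellets against 81.2 and 70.8 in the supernatants. The troponin C gene TpnC47D had 30.2 and 25.9 in the pellets against 48.9 and 53.3 in the supernatants. Of 7 chaperone genes 3 were higher and 4 lower in both; Hsp60, the mitochondrial chaperonin, had 175 and 268 in the pellets, against 155 in supernatant 5 and 2.02 in supernatant 6, where its locus was assembled over 2061 bp. The locus was assembled over 3990 bp in pellet 5 and 2110 bp in pellet 6, against 3991 bp in supernatant 5.

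Replicates 1 to 4 are 4 pellets and 4 supernatants of the same genotype whose rows carry gene names, and the same genes were fitted in them. Of 1544 genes tested there, 99 (6.41%) passed an adjusted p of 0.05 with limma, 42 (2.72%) higher and 57 (3.69%) lower in the pellet. With the replicate number as a block, since same-numbered libraries deviate together there, 340 genes (22%) passed, 158 higher and 182 lower. Values as deposited, without scaling, gave 796 higher and 8 lower in those replicates, because the median of all genes then lay at 0.76 on the log2 scale in place of -0.01.

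Most genes that passed the test in replicates 1 to 4 had the same sign in replicates 5 and 6. Of the 42 that rose, 30 (71.4%) were higher in both of the pellets 5 and 6, against 32.6% of all 1544 genes, and 2 were lower in both. Of the 57 that fell, 48 (84.2%) were lower in both, against 36.7% of all, and 3 were higher in both. Their median log2 differences in replicates 5 and 6 were 0.57 for the genes that rose and -0.64 for those that fell, against 0.95 and -0.90 in replicates 1 to 4. With the block, 90 of 158 (57%) that rose were higher in both and 26 were lower in both; of the 182 that fell, 120 (65.9%) were lower in both and 15 were higher in both. Of the 57 that fell, 33 are cytoplasmic ribosomal proteins. Across all 1544 genes, the differences of the 2 sets had a Pearson's r of 0.31 and a Spearman's rho of 0.35, over genes that share their libraries within each set.

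**Figure D4:**
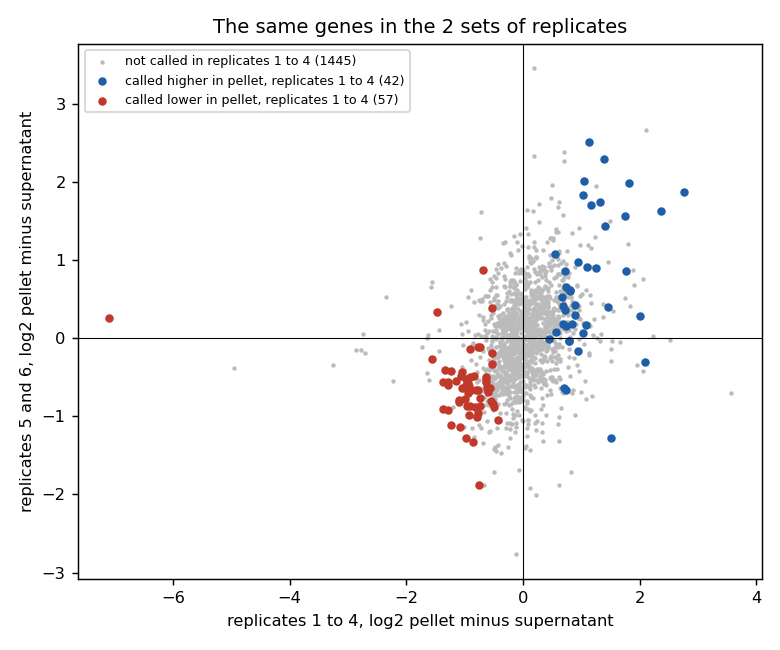
Log2 difference of pellet minus supernatant of the 1544 genes in replicates 1 to 4 (horizontal) and in replicates 5 and 6 (vertical). Genes that passed the test in replicates 1 to 4 are blue (42 higher) or red (57 lower); most of the blue genes lie above 0 and most of the red genes below 0 on the vertical axis. The red point at the far left is dgt4, listed at 0 in the pellets of replicates 1 to 4.

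The difference between the sets was tested as an interaction in 1 limma fit of all 12 libraries. Of 1686 genes, 1 (0.0593%) passed, dgt4, a subunit of the augmin complex that nucleates microtubules within the spindle. With the replicate number as a block 15 genes passed, 3 with a larger and 12 with a smaller difference in replicates 5 and 6. In replicates 5 and 6 dgt4 had 11.3 and 25.4 scaled FPKM in the pellets against 8.80 and 22.5 in the supernatants. It was listed at 0 in all 4 pellets of replicates 1 to 4, against 71.7, 66.9, 39.6 and 34.2 FPKM as deposited in the 4 supernatants. The interaction was 7.84 on the log2 scale (SE 0.64, adjusted p = 0.000135 by limma). An exact 0 in a file without counts can be a failed estimate, and with entries at 0 left out no gene passed.

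The phototransduction list kept 3 genes, of which 2 passed the test as higher in replicates 1 to 4, against 2.72% of all genes (limma). Arr1 rose in the pellet of replicates 1 to 4 by 1.03 (adjusted p = 0.0114) and retinin, a lens protein, by 0.89 (adjusted p = 0.00537, both limma). In replicates 5 and 6 the difference of Arr1 was 0.06 and that of retinin 0.30. Retinin had 5271 and 7959 scaled FPKM in pellets 5 and 6, against 4498 and 6169 in supernatants 5 and 6. The interaction of Arr1 was -0.97 (SE 0.37, adjusted p = 0.808 by limma).

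The length of a gene went with its difference in replicate 6. Genes whose locus spans over 2000 bp (240 genes) had a median log2 difference of 0.42 in replicate 6 and 0.07 in replicate 5, and 0.14 in replicates 1 to 4. Genes under 500 bp (141 genes) had medians of -0.26 in replicate 6, 0.02 in replicate 5 and 0.09 in replicates 1 to 4. Of the long genes 20.4% lay higher and 6.67% lower in both pellets than in both supernatants, against 16.1% and 16.2% of all. The log2 ratio of assembled spans, pellet over supernatant, had a Pearson's r of -0.27 with the log2 difference in replicate 6 and -0.18 in replicate 5, across genes that share their library. Shorter assembled loci in a pellet thus went with higher FPKM there. Its part in the differences of the long genes disco, emc and CrebA was not tested. Chromosome arms showed no such gap: excluding the 3 genes of chromosome 4, the medians of the arms lay between -0.07 and 0.05 in both replicates.

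**Figure D5:**
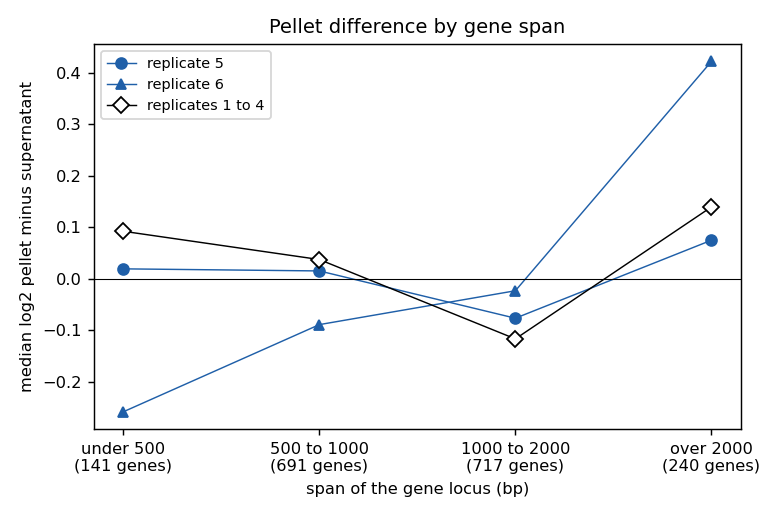
Median log2 difference of pellet minus supernatant by the span of the gene's locus, for replicate 5 (filled circles), replicate 6 (filled triangles) and replicates 1 to 4 (open diamonds). In replicate 6 the median is -0.26 in the shortest class and 0.42 in the longest, and in replicate 5 it stays between -0.08 and 0.07.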

How the data were processed

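Total RNA of b-isox pellets and supernatants of fly heads was sequenced. Per the submitters' processing notes, which name CASAVA 1.9.1, TopHat, Cufflinks and the build dm3 without order or settings, the authors deposited FPKM per locus with an interval; the mapping and assembly parameters are not given in the sources used here. The members and gene lists were chosen with earlier results of these data known. From the FPKM, each library was divided by the median ratio of its values to the geometric mean over libraries, and log2(value + 0.5) was fitted with limma 3.58.1 (mean-variance trend) in R 4.3.3, for genes averaging 1 or more after scaling, two-sided, with Benjamini-Hochberg adjustment over all genes tested at 0.05; fold changes of low genes are understated by the added 0.5. The script was tested on simulated data. Replicates 1 to 4 were scaled and fitted separately, and all 12 libraries together for the interaction.

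Genes named are, on each side, the 10 with separate fractions, an average of 5 or more in the higher one and the smallest p (no gene passed the test), for each list of 5 or more genes the 2 with the smallest p and the most abundant one, the genes of the interaction, and the markers. Of the genes this rule gives, 1 on the pellet-higher side is not reported here. Members of smaller lists and of the groups put together by current symbol or biotype were chosen after their values were seen. Symbols are those of the deposited file; current ones come from a FlyBase ID table that held 1750 of the 1789 genes, and 377 differ. In replicates 1 to 4 same-numbered libraries deviate from their group means together (correlations of 0.362 to 0.412). Pairing by number entered only the alternative with a block, and the main fits left it out. Genes with near-identical or overlapping neighbours can share reads, and strand use is not given in the sources used here. No sequence is shown.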

Additional observations from a re-analysis of the deposited data

Results flagged for a closer look

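The pellet effect of dgt4 differed between the sets of replicates: the effect in replicates 5 and 6 minus that in replicates 1 to 4 was 7.84 on the log2 scale (SE 0.64, adjusted p = 0.000135, limma over 12 libraries). Its 4 pellets of replicates 1 to 4 are listed at 0 and those of replicates 5 and 6 are not. In the 17 groups of 4 libraries of replicates 1 to 4 that were examined for dgt4 and the markers, 0 had a library past the threshold for a value apart. The nearest to it was Acp70A in the pellets, at 3.09 in pellet 4 and 36.7 to 43.8 in pellets 1 to 3 (FPKM scaled over the 12 libraries). In the supernatants it was 17.9 in supernatant 4 and 49.7 to 64.9 in supernatants 1 to 3, so replicate 4 had the lowest value in both fractions.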

How the results depend on the processing

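In replicates 5 and 6 the count of genes that passed was 0 under every alternative that kept the 4 libraries, among them pseudocounts, minimum levels, quantile normalization, names from all named rows (2875 genes) and similar spans (852 genes); the last 2 were added after seeing the data. With the replicate number as a block, which only a shared number supports here, 0 passed, 337 had an unadjusted p under 0.05 (67 without it) and the smallest adjusted p was 0.0716; same-numbered libraries deviated together with a correlation of 0.646. Leaving out a library gave 0 to 23 genes, 23 without pellet 5, where the lone pellet is assumed to vary like the supernatants. In replicates 1 to 4 the count of 99 became 340 with the block, 804 with values as deposited, 60 with quantile normalization, 48 at 80% reciprocal overlap, 162 with all named rows and 64 with similar spans (fewer or more genes are tested in these last 3), and 65 to 102 without a library. The interaction count of 1 became 15 with the block, 13 with values as deposited, and 0 at 80% overlap or with entries at 0 left out, and 1 to 7 without a library. The cause of the other moves was not tested. Of 71 named genes 15 changed sign under some alternative, 3 of them with all libraries kept: Mlc2 (-0.07) was 0.50 with quantile normalization, 0.013 at 80% overlap and 0.0063 with similar spans, GstE1 (-0.21) was 0.053 and Yp2 (-0.56) was 0.077 with quantile normalization. Without a library, the log2 difference ranged from -0.20 to 1.01 for mRpL42, from -0.32 to 0.20 for Mlc2, from -1.22 to 0.038 for Vha13, from -1.60 to 0.23 for Hsc70-4, from -0.098 to 0.82 for Acp65Aa, from -2.23 to 0.84 for Cyp4g1 and from -1.05 to 0.0082 for nec. It ranged from -0.38 to 0.92 for dgt4, from -0.24 to 0.38 for Arr1, from -0.91 to 0.36 for Lsp2, from -0.30 to 0.51 for Acp70A, from -0.98 to 0.12 for betaTry and from -0.83 to 0.22 for LysX. Depth is unknown, so no counting error could be given.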

Other observations

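Transcripts of the male reproductive tract were abundant in replicates 5 and 6. The 15 matched genes of accessory gland and testis families (Acp, Sfp and Mst genes, chosen after their values were seen) summed to 4165 and 7238 scaled FPKM in pellets 5 and 6, against 5041 and 8152 in supernatants 5 and 6. Mst57Da, an accessory gland peptide gene, had 1138 and 3161 in the pellets against 1168 and 3228 in the supernatants, and Mst87F, a sperm tail gene, had 699 and 818 in the pellets against 352 and 580 in the supernatants. As deposited, these genes made up 1.35% and 2.04% of the summed FPKM of the 1689 genes with a value in all 12 libraries in pellets 5 and 6, against 1.20% and 1.64% in supernatants 5 and 6. In replicates 1 to 4 the share was 0.135% to 0.435% in pellets and 0.152% to 0.352% in supernatants. The genes had to be assembled in all 4 libraries of replicates 5 and 6 to be followed, so the choice favours those libraries. The 18 matched digestive proteases and lysozymes made up 0.243% and 0.288% in pellets 5 and 6, against 0.177% and 0.291% in supernatants 5 and 6, and at most 0.0355% in any library of replicates 1 to 4.

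By current symbol 33 respiratory genes were matched. The 5 whose symbol ends in L, duplicates of respiratory subunits (UQCR-14L, COX6AL, ND-20L, COX6CL and ATPsynGL), all had differences above 0 and values under 60 scaled FPKM, whereas 27 of the other 28 had differences below 0 and all 28 had values above 60. COX6CL had 21.9 and 35.2 in pellets 5 and 6, against 12.8 and 18.3 in supernatants 5 and 6. This split was noticed in the values and was not tested.

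Pbprp1 (Obp69a), an odorant-binding protein, had 20.9 and 1690 scaled FPKM in pellets 5 and 6, against 19.8 and 118 in supernatants 5 and 6, the widest gap between replicates 5 and 6 among the 9 genes of its list.

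The authors' intervals of pellet and supernatant were apart in both replicates, with the pellet higher, in 189 genes (10.6%) and, with it lower, in 329 (18.4%). For the 45 cytoplasmic ribosomal proteins these numbers were 1 and 34.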
